A study of Homo sapiens with 6 samples.

Results

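The comparison set the chromatin contacts that carried the active histone mark H3K27ac in SMARCB1-deficient G401 cells against the contacts that carried ARID1A after SMARCB1 had been induced for 3 days. Its members were 4 of the 6 libraries in the series, chosen by their titles: 2 H3K27ac libraries of day 0 and 2 ARID1A libraries of day 3. G401 is a cell line from a rhabdoid tumour of the kidney, a childhood cancer that lacks SMARCB1. All libraries came from 1 stable G401 line with an inducible SMARCB1 transgene kept in Tet-free serum. The day 0 cells were labelled SMARCB1 -/- and had no induction, and the day 3 cells were labelled SMARCB1 +/+ and had received doxycycline at 1 μg/ml. The day 3 label stands for the induced transgene, and SMARCB1 protein and RNA levels are not analysed here. The other 2 libraries, H3K27ac at day 3, are used only as a reference for which day 0 contacts were listed again with the same antibody. The antibody and the SMARCB1 state changed together, so their parts in any difference cannot be told apart.

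SMARCB1 and ARID1A are subunits of the SWI/SNF chromatin remodelling complexes, which move nucleosomes and keep enhancers accessible. SMARCB1 belongs to the core of the BAF and PBAF forms, and ARID1A is found in the BAF form only. H3K27ac marks active enhancers and promoters. HiChIP joins DNA ends that lie close together in the nucleus, enriches the joined fragments with an antibody, and counts them by paired-end sequencing. Each contact is thus a loop between 2 anchors, and its strength is its number of paired-end tags (PETs).

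At day 0 the H3K27ac replicates comprised 46677 and 44104 loops, and the ARID1A replicates 157578 and 164053. The PET totals behind them were 301703 and 253502 at day 0 against 435210 and 467487 with ARID1A. The day 3 H3K27ac libraries were deeper, with 929128 and 982141 PETs, which bears on their raw counts given below. A loop held 6.46 and 5.75 PETs on average at day 0 and 2.76 and 2.85 with ARID1A. Replicates of a group shared nearly all their anchor coordinates (99.2% at day 0 and 98.4% with ARID1A), whereas 1.74% to 1.79% of anchors were identical between groups. Anchors that overlapped by at least 1 bp in the 4 libraries were therefore merged into 28191 consensus anchors joined by 257714 consensus loops. A region with no listed anchor in a group cannot show a contact there, so such a region is called not measured rather than without contacts. Whether replicates were separate cultures is not stated in the labels, and all p-values refer to the spread of the libraries alone, which may be technical. The files name no genes and no hg19 annotation was used here. Regions are therefore given by hg19 coordinates and cytogenetic band, and a gene named below is known to lie in that band, with no statement that an anchor overlaps it.

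Most of the day 0 H3K27ac contact map lay on regions that also had an ARID1A anchor at day 3. Of the 7985 day 0 anchors, 6197 (77.6%) overlapped an ARID1A anchor, and these made up 23.5% of the 26403 ARID1A anchors. Day 0 anchors with ARID1A held a median of 61 PETs, and the 1788 without it held 36. The share with an ARID1A anchor was 67.9% in the fifth of day 0 anchors with the fewest PETs, then 73.3%, 78.9% and 82.2%, and 85.8% in the fifth with the most. By width it was 71.2% for day 0 anchors under 5 kb, 77.9% for those of 5 to 10 kb, 91.7% for those of 10 to 20 kb and 85.5% for the widest. The day 3 H3K27ac list had an anchor at 95.7% of the day 0 anchors with ARID1A (95% Wilson interval 95.2% to 96.2%) and at 77.6% of those without it (75.6% to 79.4%). Within each of these 5 groups by day 0 PETs the first share was between 94.8% and 96.9% and the second between 73.5% and 82.5%. Such intervals cover counting error only. A day 3 anchor counted if it touched the merged anchor, which includes the ARID1A part where there is one. Median ARID1A and day 0 widths were 8363 and 5919 bp at anchors of both groups, and 5077.5 bp at day 0 anchors without ARID1A. The first share is thus favoured by the merging, and by how much was not tested.

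The match was one-sided when PETs were followed instead of anchors. In the day 0 libraries 68.5% ± 0.232 (SD, n = 2) of PETs joined anchors that both had an ARID1A anchor, and 6.05% joined anchors that both lacked one. In the ARID1A libraries 20.4% ± 0.158 (SD, n = 2) of PETs joined anchors that both had a day 0 H3K27ac anchor, and 38.3% joined anchors that both lacked one. The 2 groups did not overlap in either share, and the exact two-sided permutation test gave p = 0.333, the smallest value that 2 libraries against 2 can give. ARID1A contacts away from day 0 anchors were also longer than their day 0 counterparts: the PET-weighted median span of contacts with no anchor of the other group was 70.1 kb with ARID1A and 35.0 kb at day 0. Over all contacts the median span was 85.9 ± 0.313 kb (SD, n = 2) with ARID1A and 90.5 ± 1.59 kb at day 0. The order of that last pair turned when only spans of 20 kb or more were counted, where the ARID1A span was 8.72 kb the longer.

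**Figure D1:**
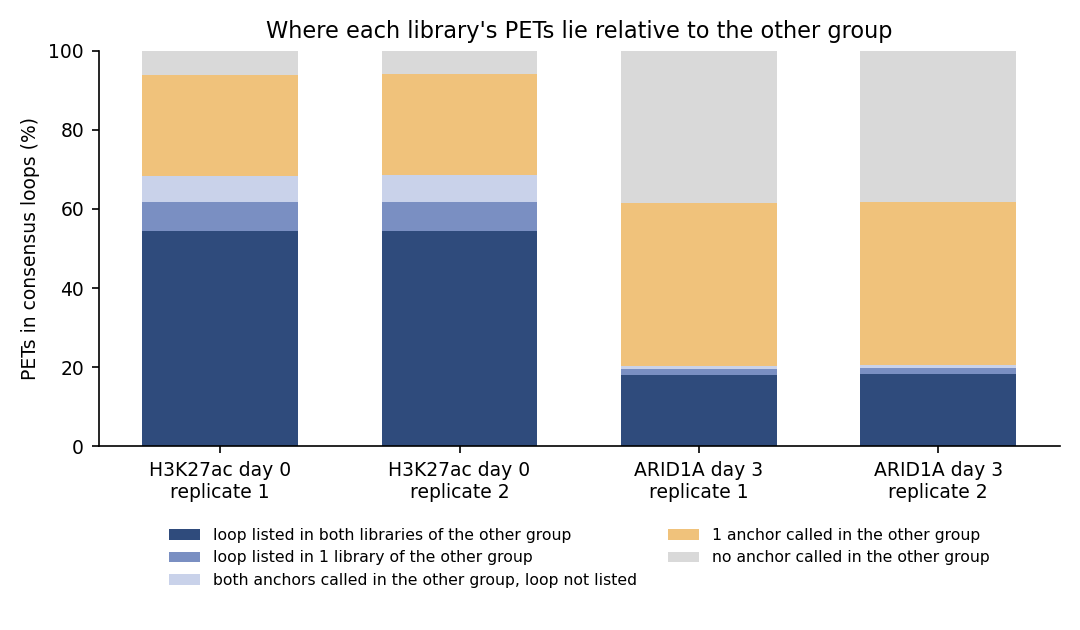
Share of each library's PETs (vertical axis, percent of PETs in consensus loops) by the state of the loop in the other group, 1 stacked bar for each of the 4 libraries. The darkest segment, loops listed in both libraries of the other group, is 54.4% on average at day 0 and 18.2% with ARID1A, and the grey segment, loops with no anchor in the other group, is 6.05% and 38.3%.

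Single contacts were followed through the 27507 day 0 loops that both day 0 libraries listed. In 18769 of them (68.2%) both anchors had an ARID1A anchor. ARID1A replicate 1 listed 60.9% of those 18769 loops (Wilson interval 60.2% to 61.6%) and replicate 2 listed 62.3% (61.6% to 63.0%). Loops that both ARID1A libraries listed were 33.7% of the 27507 and held 57.6% and 57.2% of their PETs in the day 0 libraries, with a median of 13 PETs and a span of 133 kb. Loops between ARID1A anchors that neither ARID1A library listed were 17.8% of the 27507 and held 4.33% and 4.72% of the PETs, with a median of 3 PETs and a span of 580 kb. Between ARID1A anchors, the loops that were listed thus had more PETs and shorter spans than those that were not. Loops with 1 ARID1A anchor were another 27.6% of the 27507 and held 25.12% and 25.04% of the PETs, with a median of 6 PETs. Loops with none were 4.14% and held 6.27% and 6.02%, with a median of 7 PETs and a span of 121 kb, and these 2 classes were not measured with ARID1A.

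Day 0 strength and ARID1A listing rose together. To compare the antibodies, only loops between anchors present in all 3 groups were used, and all 6 libraries were thinned to 80919 PETs on these loops, the number in the smallest. Of loops with 1 PET in a day 0 library, 35.3% to 36.2% were listed in an ARID1A library, 44.0% to 46.2% in a day 3 H3K27ac library and 43.4% to 45.0% in the other day 0 library. At 4 to 9 PETs the shares were 83.7% to 84.5%, 92.8% to 93.7% and 94.7% to 95.6%. At 30 PETs and over they were 99.7% to 100%, 100% and 100%. The ARID1A range lay below both H3K27ac ranges in each class under 30 PETs and met them in the strongest class. Over all classes ARID1A listed 56.6% to 57.5% and day 3 H3K27ac 65.9% to 67.0%. The gap depends on where depth is matched: with 253502 PETs per library in total, only 18.6% and 18.8% of the ARID1A PETs but 40.0% and 40.4% of the day 3 H3K27ac PETs lay on the compared loops, and the shares were 42.3% to 42.9% and 65.3% to 66.2%.

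**Figure D2:**
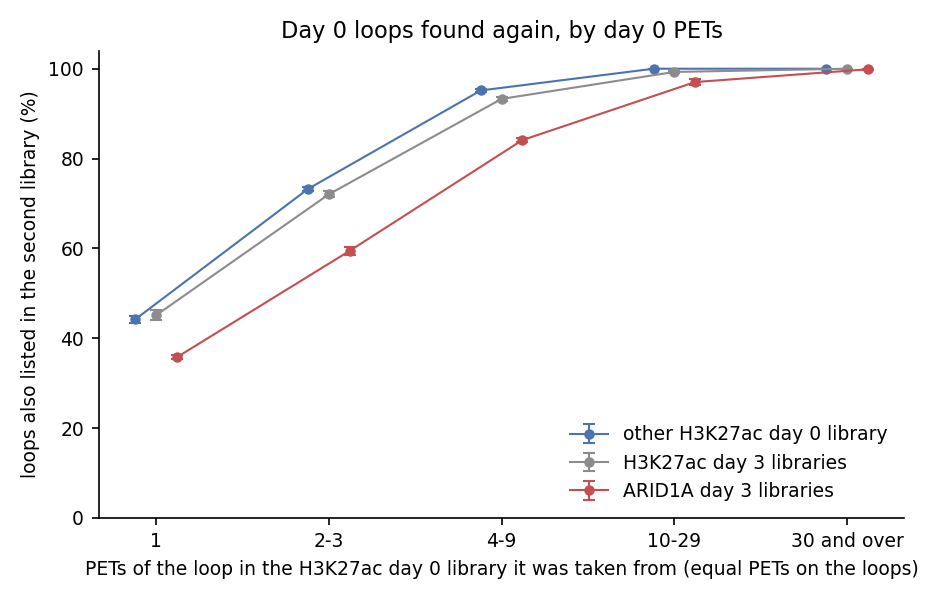
Percent of day 0 H3K27ac loops listed again (vertical axis) by the loop's PETs in the day 0 library it was taken from (horizontal axis), with every library thinned to 80919 PETs on the compared loops; points are midpoints and bars run from the lowest to the highest library pair. The ARID1A points lie below the others under 30 PETs, at 35.3% to 36.2% for 1 PET, and reach 99.7% to 100% for 30 PETs and over.

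The same thinned libraries were used to ask which day 3 group listed each day 0 contact. Among 16621 day 0 loops between anchors of all 3 groups, 40.1% were listed in all libraries of both day 3 groups. A further 7.21% were in both day 3 H3K27ac libraries and no ARID1A library, 2.18% were in both ARID1A libraries and no day 3 H3K27ac library, and 9.31% were in none of the 4. The remaining loops were listed in 1 library of at least 1 group. Of the 931 loops with 60 or more day 0 PETs, 918 were in both groups, 1 was in the H3K27ac libraries alone and 2 in the ARID1A libraries alone. The counts came from 1 thinning and have no test of their own.

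Distance went with listing as well. Both ARID1A libraries listed 90.7% of the day 0 loops under 20 kb between shared anchors and 19.99% of those of 500 kb and over. Long loops have fewer PETs, so the same shares were taken within loops of 8 to 20 day 0 PETs, where they were 79.7% and 49.3%. The fall with distance was smaller there and kept its direction from the second span class on, from 80.8% to 71.1%, 65.1%, 58.0% and 49.3%.

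The strongest day 0 contacts were nearly all carried by ARID1A, except at regions with no ARID1A anchor. Of the 8 loops with the most day 0 PETs, 6 joined ARID1A anchors and were listed in both ARID1A libraries, with 157 to 374 ARID1A PETs. Each of these 6 held fewer PETs with ARID1A than at day 0. The ARID1A libraries were deeper in total, but their loops between shared anchors held 86955 and 94415 PETs against 187939 and 159040 at day 0. The loop at 17q23.1, a band that holds VMP1 and the microRNA gene MIR21, joined 57837434 to 57868345 with 57872573 to 57939256 on chromosome 17. It had 632 and 463 PETs at day 0 and 189 and 185 with ARID1A. The loop at 3q22.2, a band that holds AMOTL2, joined 134025645 to 134102518 with 134169777 to 134216316 on chromosome 3. It had 571 and 502 PETs at day 0, 181 and 176 with ARID1A, and 1020 and 1096 in the day 3 H3K27ac libraries. The 3q25.2 loop between 154724464 and 154809411 had 487 and 404 PETs at day 0, 120 and 122 with ARID1A and 722 and 788 with H3K27ac at day 3. Per library total the day 3 H3K27ac level was 0.572 of day 0 at 3q22.2 and 0.492 at 3q25.2. At equal totals the share of PETs on loops between anchors of all 3 groups was lower as well. It was 40.0% and 40.4% with H3K27ac at day 3 and 55.1% and 55.6% at day 0. In the loops at 17q23.1, 3q22.2 and 3q25.2 both ARID1A counts lay below both day 0 counts. This was the common case: per library total, 87.0% of the 8360 loops tested between shared anchors were lower with ARID1A.

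The other 2 of these 8 loops started at an anchor at 8q24.21 (chromosome 8, 127392160 to 127449309) that had no ARID1A anchor. Its loop to 127458720 to 127526119 was the strongest of the day 0 map, with 832 and 682 PETs, and was not measured with ARID1A. Both partner anchors of that region were ARID1A anchors, and the loop between them had 473 and 395 PETs at day 0 and 138 and 147 with ARID1A. ARID1A contacts were therefore listed inside this region and absent from the list at one of its 3 anchors.

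Other strong day 0 anchors without an ARID1A anchor were spread over several chromosomes. The anchor at 20q13.2 (chromosome 20, 52364148 to 52395921), a band that holds the transcription factor gene ZNF217, was the strongest, with 1483 and 1209 PETs at day 0. A second one in the band (52221772 to 52243032) had 916 and 723 PETs and also had no day 3 H3K27ac anchor. The anchor at 7p15.2 (chromosome 7, 25885553 to 25910107) had 1026 and 884 PETs at day 0 and 2073 and 2278 in the day 3 H3K27ac libraries. It was thus a strong H3K27ac hub at both times with no ARID1A anchor. The 14q24.1 anchor at 68590039 to 68614734 had 942 and 693 day 0 PETs, and the 2q23.3 anchor at 150570512 to 150610455 had 876 and 705. Of the 6 strongest day 0 anchors without ARID1A, the one at 52221772 was the only one that also lacked a day 3 H3K27ac anchor.

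Only a few strong contacts between ARID1A anchors were missing from both ARID1A libraries. Of the 4902 such loops, 342 had 10 or more day 0 PETs and 42 had 20 or more. The strongest was a 5.32 kb loop at 1q21.3 (chromosome 1, 153598419 to 153604536 with 153604810 to 153608778), with 34 and 36 PETs at day 0, 57 and 68 with H3K27ac at day 3, and 0 and 0 with ARID1A. Taking 3 PETs over the group as the limit that a count of 0 allows, it was at least 41.0-fold lower per library total with ARID1A. The next was a 202 kb loop at 17p13.1 (6912615 to 6928486 with 7114508 to 7131328 on chromosome 17), with 21 and 30 PETs at day 0, 14 and 24 with H3K27ac at day 3 and 0 with ARID1A, at least 29.8-fold lower. Per library total the day 3 H3K27ac level was 0.513 of day 0 in the 1q21.3 loop and 0.210 in the 17p13.1 loop. The day 3 share over all compared loops was lower too, as given above. The next loops lay at 19q13.31, 16p11.2, 6p22 and 7q36.1 and had 33 to 38 day 0 PETs. The bounds on the folds cover counting error only.

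The share of day 0 PETs on loops listed with ARID1A differed widely between parts of the genome. All loops of both day 0 libraries count in this share, so loops not measured with ARID1A lower it. In the 77 cytogenetic bands with at least 100 day 0 loops, the median share of day 0 PETs on loops listed in both ARID1A libraries was 57.4%, with quartiles of 43.5% and 71.0%. At 14q22.2, the band of the growth factor gene BMP4, it was 95.7%, and all 17 of the day 0 anchors there had ARID1A. The strongest 14q22.2 loop (54635225 to 54701000 with 54792272 to 54820580 on chromosome 14) had 330 and 261 PETs at day 0 and 115 and 99 with ARID1A. The shares were 90.0% at 5q23.2, 88.9% at 6q22.31, 85.6% at 1p13.3 and 85.0% at 2p21. In those bands 23 of 25, 17 of 18, 17 of 22 and 32 of 36 day 0 anchors had ARID1A, against 77.6% over all day 0 anchors. The bands with the lowest shares were 22q13.2 (15.9%), which holds the acetyltransferase gene EP300, then 14q24.1 (20.4%), 20q13.2 (22.8%) and 19q13.42 (23.5%). At 22q13.2 ARID1A anchors covered 15 of 31 day 0 anchors, and at 14q24.1 they covered 19 of 29. They covered 18 of 27 at 20q13.2 and 23 of 32 at 19q13.42. At 12q14.3, the band of the chromatin protein gene HMGA2, 23.5% of PETs lay on such loops and 12 of 25 day 0 anchors had ARID1A. Its strongest loop (66105039 to 66143588 with 66203239 to 66235703) was nonetheless listed with ARID1A, at 30 and 35 PETs against 203 and 169. By chromosome the share ran from 32.9% on chromosome 20 to 73.7% on chromosome 13. Both anchors had ARID1A in 99.0% of the day 0 loops at 14q22.2. This was so for 20.4% at 12q14.3, 27.8% at 22q13.2, 35.5% at 20q13.2, 37.3% at 14q24.1 and 58.6% at 19q13.42. How far loops not measured account for the low shares was not tested. The bands were ranked on the shares of PETs, so the order is a description.

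**Figure D3:**
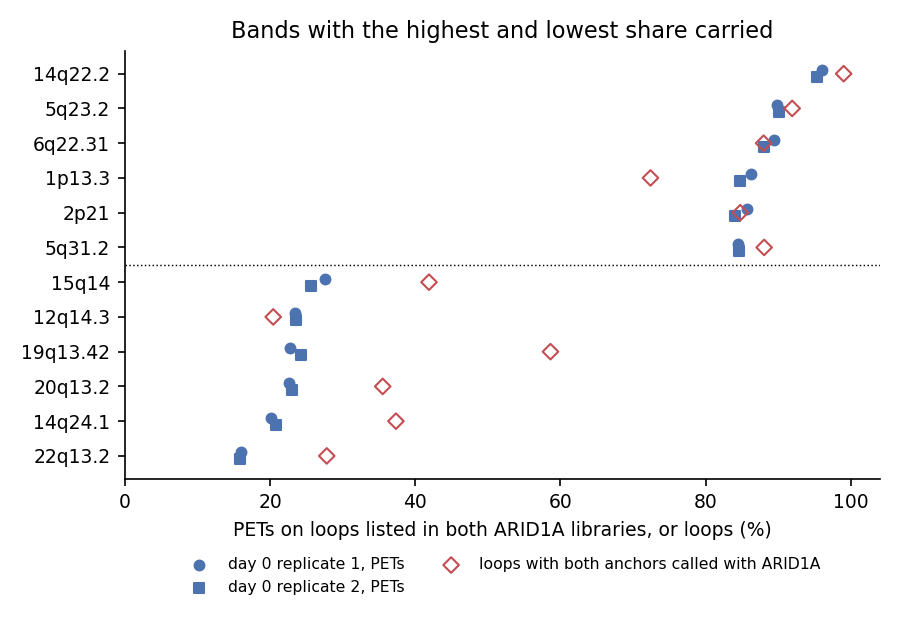
The 6 bands with the highest and the 6 with the lowest share of day 0 H3K27ac PETs on loops listed in both ARID1A libraries (filled points, 1 per day 0 replicate, percent), with the percent of day 0 loops whose anchors both had ARID1A (open diamonds). The share runs from 15.9% at 22q13.2 to 95.7% at 14q22.2, and replicates lie close together. Loops not measured with ARID1A count in it as not listed.

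Where both groups had anchors, contact strength was compared with edgeR's quasi-likelihood test with TMM scaling on those PETs, so "higher" and "lower" mean relative to the typical contact between shared anchors. On the scale of the library totals nearly everything was lower with ARID1A: 92.0% of anchors had a lower mean CPM (PETs scaled to equal library totals) with ARID1A, at a median ratio of 0.267, and most ARID1A PETs lay on other anchors. Of 4711 anchors tested, 62.1% differed at a Benjamini-Hochberg adjusted p under 0.05, 1452 (30.8%) higher and 1474 (31.3%) lower. Of 8360 loops tested, 39.4% differed, 1586 (19.0%) higher and 1710 (20.5%) lower. Scaled to library totals instead of TMM, 177 anchors and 365 loops were higher, whereas 3956 anchors and 5672 loops were lower. Over the 18769 loops Spearman's rho was 0.775 between the day 0 libraries, 0.757 between the ARID1A libraries and 0.585 to 0.617 between the groups, a description over loops that share anchors and libraries.

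The named anchors in each direction are those with the smallest p, which favours anchors with many PETs, and they are not the largest changes. All 10 named anchors that were higher with ARID1A had broader ARID1A than day 0 H3K27ac anchors, by 2.20 to 11.9 times. They were 3106 to 22601 bp wide at day 0, with a median of 5922 bp, and 29249 to 63409 bp wide with ARID1A. All 10 also had a day 3 H3K27ac anchor, near the share over all tested anchors. That share was 96.4% of those called higher, 95.5% of those called lower and 94.9% of those not called. At 3p14.3 on chromosome 3 the anchor at 57794091 to 57857500 had 32 and 18 PETs at day 0 and 300 and 319 with ARID1A, a log2 fold change of 4.65 ± 0.15 (SE, adjusted p = 4.52e-15). Its neighbour at 57757852 to 57792647 had 16 and 14 against 216 and 230 PETs (4.91 ± 0.17, adjusted p = 1.26e-14). The pair was listed as 7257 and 4038 bp wide at day 0 and as 63409 and 34795 bp wide with ARID1A. At 17q21.31, a band that holds MEOX1 and the phosphatase gene DUSP3, the anchor at 41769461 to 41817327 had 48 and 43 PETs at day 0 and 240 and 301 with ARID1A. The 17q21.31 anchor next to it at 41818552 to 41847801 had 66 and 57 against 218 and 261. Another 3 of the 10 lay at 20q13.13, the band of the phosphatase gene PTPN1. The one with the largest change, at 49035937 to 49072846, had 11 and 6 PETs at day 0 and 155 and 146 with ARID1A (log2 fold change 5.15 ± 0.23). Single anchors at 2p22.1, 14q24.1 and 4q31.23 completed the 10. Only anchors whose groups did not overlap on CPM, in either direction, could be named, and 4429 of the 4711 tested met this. In each of the 10 both ARID1A libraries lay above both day 0 libraries, and the mean CPM was higher too. For these the direction thus holds on the library-total scale.

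The 10 named anchors that were lower with ARID1A had log2 fold changes from -3.14 to -1.36 and were 11678 to 52334 bp wide at day 0, against a median of 5919 bp over all shared anchors, and 4 of the 10 lay in 6p22. This part of chromosome 6 holds the main cluster of replication histone genes, whose products package newly made DNA. The 6p22.2 anchor at 26019666 to 26059153 had 693 and 572 PETs at day 0 and 29 and 41 with ARID1A (log2 fold change -3.14 ± 0.13). The anchor at 26180088 to 26239704 had 1354 and 1138 against 157 and 168 (-1.91 ± 0.08), and it lost its call when anchors had to overlap reciprocally by 50% (-0.37, adjusted p = 0.277). The 6p22.1 anchor at 27771845 to 27808886 had 624 and 543 against 52 and 58 (-2.37 ± 0.11). The first and second of these 3 had no anchor in the day 3 H3K27ac list. The broad day 0 anchors at 17q23.1 (from 57872573) and 14q22.2 (from 54635225) were likewise missing from that list, and whether H3K27ac was lower in these regions at day 3 was not tested. Outside 6p22 the named anchors lay at 9q34.11 (3 anchors), 2p21, 17p11.2 and 1q22, the band of the lamin gene LMNA. The 1q22 anchor at 156059489 to 156101458 had 492 and 390 PETs at day 0 and 50 and 58 with ARID1A. The 9q34.11 anchor at 132218056 to 132273117 had 1121 and 1087 against 194 and 229. In all 10 both day 0 libraries lay above both ARID1A libraries, which the naming rule required and which held for all 1474 anchors called lower. Of the 10, 6 had similar widths in the groups, within 1.5 times, against 54.7% of all shared anchors.

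**Figure D4:**
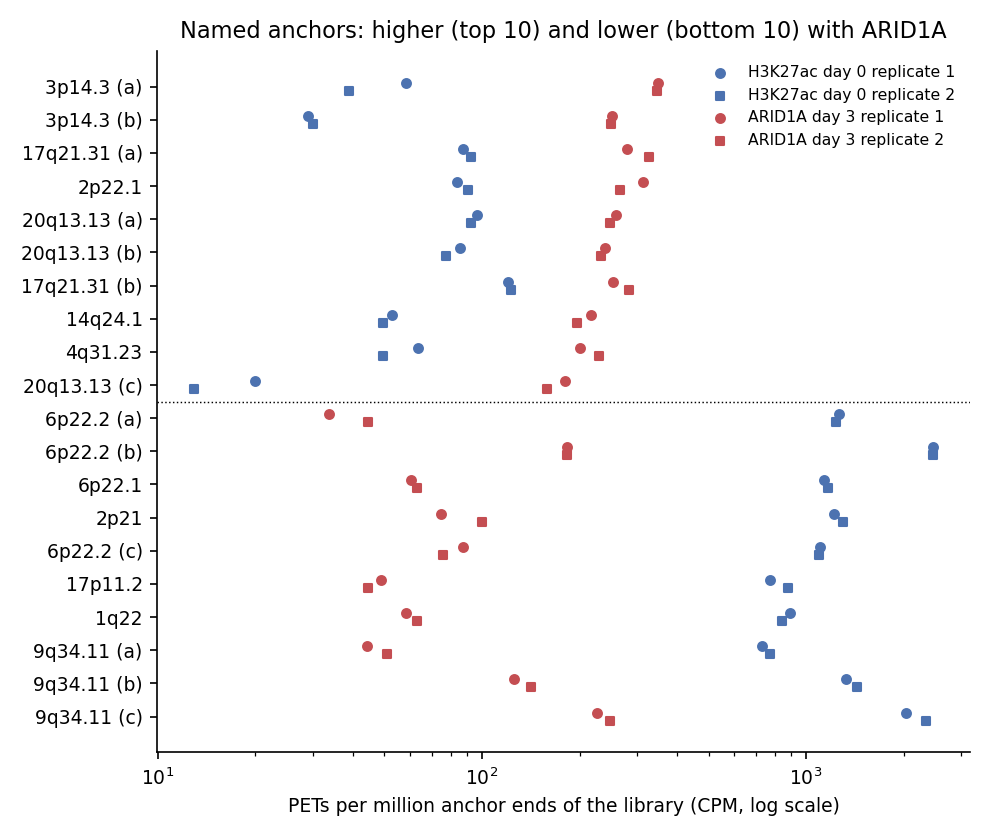
CPM (PETs scaled to the library's total of anchor ends, log scale) at the 10 named anchors that were higher (top) and the 10 that were lower (bottom) with ARID1A, 1 point per library. ARID1A points lie right of the day 0 points in all of the top 10, as at 3p14.3 (300 and 319 PETs against 32 and 18). They lie left of them in all of the bottom 10. Only anchors whose groups did not overlap could be named.

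The bands 6p22.1 and 6p22.2 were not lower throughout. Which of their anchors lie at histone genes was not examined, so the counts describe the bands and not the histone cluster. In 6p22.1 and 6p22.2 together, 43 of 59 day 0 anchors had ARID1A and 53 had H3K27ac at day 3. Of 41 anchors tested there, 15 were higher and 11 lower with ARID1A, and of 153 loops tested 36 were higher and 40 lower, against the genome-wide shares given above. The 2 bands also held contacts over 1000 kb long. The 52 day 0 loops of that length within 6p22 that joined ARID1A anchors held 493 and 419 PETs at day 0 and 26 and 30 with ARID1A, over anchors whose listed widths differed between the groups. Such long loops were also lower elsewhere: the 2003 outside 6p22 held 8292 PETs at day 0 and 1604 with ARID1A. Per library total the day 0 level was 28.6 times that with ARID1A in 6p22 and 9.07 times outside it. Loops of 1000 kb or less between shared anchors were lower with ARID1A as well. Their day 0 level was 4.93 times that with ARID1A in 6p22 and 3.46 times outside it. Both ARID1A libraries listed 17.3% of the loops over 1000 kb in 6p22 and 11.6% of those outside it. In 6p22 a single loop gave 263 of the day 0 PETs. This 1580 kb loop between the 6p22.2 anchor at 26180088 and the 6p22.1 anchor at 27771845 had 136 and 127 PETs at day 0 and 3 and 3 with ARID1A. The 170 kb loop between the anchors at 26019666 and 26180088 fell from 278 and 240 to 7 and 18. The 66.9 kb loop from 26180088 to 26264747 had 304 and 236 against 28 and 32 and, like its anchor, lost its call under reciprocal overlap (-0.23, adjusted p = 0.680).

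Of the 6 named loops that were higher with ARID1A, the one between the 3p14.3 pair of anchors had the largest fold change. This loop, 50.5 kb long, had 1 and 1 PET at day 0, 151 and 137 with ARID1A and 35 and 32 with H3K27ac at day 3. Its CPM was 82.0 times the day 0 value (counting interval 22.5 to 681). The 17q21.31 loop between the anchors at 41769461 and 41818552 had 11 and 5 PETs at day 0, 125 and 160 with ARID1A and 297 and 316 with H3K27ac at day 3. The 20q13.13 loop from 49107692 to 49147333 had 10 and 8, 108 and 112, and 95 and 86 PETs in the same order. Per library total the day 3 H3K27ac level in these 3 loops was 9.68, 11.4 and 2.93 times that of day 0. Among the named loops lower with ARID1A, those outside 6p22 stayed listed with H3K27ac at day 3. Those in 6p22 share the anchor at 26180088, which had no day 3 H3K27ac anchor, so they were not measured there. The 9q34.11 loop from 132079207 to 132218056 had 305 and 278 PETs at day 0, 39 and 43 with ARID1A and 421 and 493 with H3K27ac at day 3. The 5q31.2 loop from 138996785 to 139059815 had 451 and 386, 77 and 80, and 776 and 836. Per library total the day 3 H3K27ac level was 0.453 of day 0 at 9q34.11 and 0.559 at 5q31.2, so the higher raw counts went with the deeper libraries. The lower day 3 share over all compared loops, given above, applies here too.

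Listed width moved with these changes. Over the anchors tested, Spearman's rho between the log2 fold change and the log2 ratio of listed widths was 0.71, and over loops it was 0.74, both descriptions over features that share libraries. Of the anchors called higher 96.3% were wider with ARID1A, with median widths of 6298.5 bp at day 0 and 15728 bp with ARID1A. Of the anchors called lower 38.9% were wider with ARID1A, with medians of 7405.5 and 6657 bp. Whether listed width follows PETs or PETs follow width was not tested. The part of width in the calls was not tested beyond the restriction to similar widths. Among the 2499 anchors whose widths were within 1.5 times of each other, 1215 differed, and among 2620 such loops 348 differed. In that set the named anchors at 1q22 and 2p21 were lower, the latter (43146449 to 43167659) with 672 and 601 PETs at day 0 and 64 and 92 with ARID1A at widths of 21210 and 19216 bp. An anchor at 4p14 (chromosome 4, 40571663 to 40592882), 15909 and 21219 bp wide and chosen after its values were seen, had 125 and 103 PETs at day 0 and 171 and 196 with ARID1A (log2 fold change 1.72 ± 0.12). Its mean CPM was 225 at day 0 and 206 with ARID1A, so it was higher only relative to other shared anchors.

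**Figure D5:**
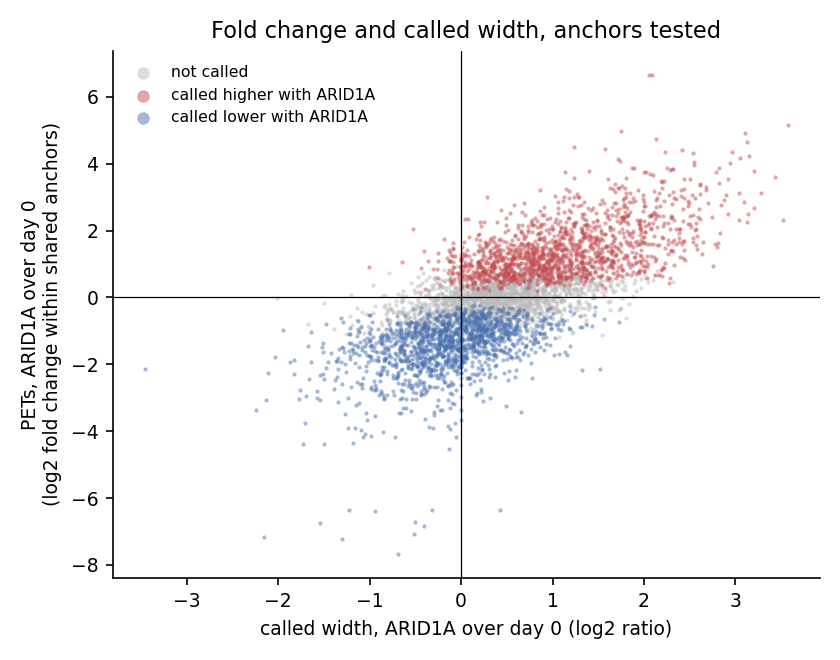
Log2 fold change of PETs (ARID1A over day 0, within shared anchors, vertical axis) against the log2 ratio of listed widths (ARID1A over day 0, horizontal axis) for the 4711 anchors tested, coloured by call. The points rise from lower left to upper right (Spearman's rho 0.71), and the anchors called higher lie almost all right of 0.

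Calls in each direction also differed between chromosomes and bands. On chromosome 19, which is dense in genes, 12.3% of the anchors tested were higher and 52.8% lower with ARID1A. On chromosome 4, which is poor in genes, 49.2% were higher and 12.9% lower. Chromosomes 13 and 18 are also poor in genes. On chromosome 13 the order was the reverse, with 17.8% higher and 37.8% lower, and on chromosome 18 it was 33.3% and 24.6%. A link of the calls with gene density was not tested. At 7q21.11 all 14 of the anchors tested were higher, with a median log2 fold change of 2.75, and at 1p31.3 it was 16 of 17, with a median of 2.05. At 14q32.33 8 of 10 anchors were lower, with a median of -1.84, and at 19q13.42 it was 19 of 22, with a median of -1.75. These are the bands with the 2 highest and the 2 lowest medians among 188 bands with 10 or more anchors tested. Copy number of the regions was not tested.

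Some ARID1A contacts joined day 0 H3K27ac anchors that had no contact with each other in the day 0 libraries. There were 3937 such loops, of which 776 were in both ARID1A libraries and 41 had 10 or more ARID1A PETs. The strongest, at 3p22.2 (chromosome 3, 37143704 to 37171259 with 37172388 to 37191729), had 0 and 0 PETs at day 0 and 36 and 46 with ARID1A, at least 15.6-fold higher per library total. The next, at 2p22.1 (39601773 to 39611757 with 39615309 to 39651322 on chromosome 2), had 33 and 34 PETs, at least 12.7-fold higher. The 3p14.3 anchor at 57794091 had another such loop, to 57918808 to 57941349, with 27 and 33 ARID1A PETs and 6 and 5 with H3K27ac at day 3. At 20q13.13 a 69.4 kb loop from 49035937 to 49107692 had 29 and 16 ARID1A PETs and 26 and 25 with H3K27ac at day 3. In all of these the anchors were wider with ARID1A than at day 0.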

How the data were processed

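HiChIP libraries were aligned to hg19, and HiC-Pro and Bowtie2 are named without versions, per the submitters' processing notes; the anchor and loop caller is not given in the sources used here. The deposited count per loop is its PETs, used as given. The deposited p-value or q-value (it is not stated which) ran from 0 to 1 and served only in an alternative at 0.01 or less. Anchors were merged at 1 bp overlap, and loops inside a merged anchor were dropped (8.79% and 8.57% of PETs at day 0, 1.41% and 1.43% with ARID1A). Loops with 4 or more and anchors with 10 or more PETs in at least 2 libraries were tested with edgeR 4.0.16 (quasi-likelihood, TMM, Benjamini-Hochberg), in R 4.3.3. On simulated data with 200 features changed 4-fold, the test recovered 56.5% of them among 8360 loops and 85.0% among 4711 anchors. False calls were 5.83% and 1.73% of the calls. Far more features were called in the real data, and such a case was not simulated. CPM refer to all consensus PETs. Folds of loops at 0 PETs take 3 counts over the group as the floor.

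Named anchors (10 per direction) and loops (6 per direction) had the smallest p among those called with non-overlapping groups. Members, lists and rules were chosen with earlier results of these data known. Alternatives were library totals, DESeq2 1.42.0, no count filter, a replicate block, each library left out, thinning, similar widths, and reciprocal overlap of 50%. Thinning to equal PETs on the compared loops was added after seeing the data. Same-numbered libraries of the 2 groups did not deviate together from their group means (r = 0.0139 over 4711 anchors). Whether they came from the same culture cannot be read from this value. Bands came from circlize 0.4.16. Cell type markers could not be checked in contact counts.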

Additional observations from a re-analysis of the deposited data

How the results depend on the processing

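Named regions kept direction and call in 212 of 213 anchor and 122 of 123 loop alternatives that gave a value. None of the named higher anchors or loops has a value with similar widths or reciprocal overlap, since none met these limits, so their dependence on width was not tested. Among the lower ones, the 2 losses, both at 6p22.2 from 26180088 under reciprocal overlap of 50%, were -0.37 and -0.23. Of 3296 loops called, the count became 6037 with library totals, 1348 with DESeq2 (no adjusted p for 2756), 348 with similar widths, 608 after thinning, 550 with reciprocal overlap, and 1679 to 1892 with 1 library left out. Of 2926 anchors called, it became 1796 with DESeq2, 1215 with similar widths and 961 with reciprocal overlap. Similar widths and reciprocal overlap tested fewer features (2620 and 3071 loops, 2499 and 2330 anchors); the cause of the other shifts was not tested. The replicate block gave 2952 loops and 2983 anchors. It is reported as a check because same-numbered libraries did not deviate together and no label pairs them. Library totals left 6.05% of loop calls and 4.28% of anchor calls higher. The mean share of day 0 loops listed with ARID1A (61.6%) became 43.2% at 2 or more ARID1A PETs, 52.3% after thinning, 70.4% with equal PETs between shared anchors (chosen after seeing the data), 88.5% for loops of 10 or more day 0 PETs, 54.0% with reciprocal overlap, 74.8% at a deposited value of 0.01 or less, and 50.4% to 62.3% with 1 library left out. The span difference of -4.59 kb turned to 8.72 kb for spans of 20 kb or more and to 8.15 kb at a deposited value of 0.01 or less. With 2 libraries per group, single values cannot pass an exact test, and loops of 1 to 3 PETs limit what listing can show.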
